A study of Mus musculus with 7 samples.

Results

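Interferon-stimulated genes are genes whose transcripts accumulate in a cell that has detected interferon. A list of 41 such genes was followed across 7 arrays of mouse embryonic fibroblasts (MEFs). Members were taken by gene symbol: every probe set whose symbol in the platform annotation was on the list was used. The annotation named 40 of the 41, each with 1 probe set, among 19505 named genes in all. Ifi44 was not analysed here. Values are log2 signals, so a difference of 1 between 2 arrays is a 2-fold difference.

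The arrays compared forms of Mef2c, a muscle transcription factor, in the direct reprogramming of fibroblasts towards cardiac muscle. Retroviruses delivered Gata4 and Tbx5 (GT), which all 6 transduced arrays share by their labels, with isoform 1 (GT/M1), isoform 2 (GT/M2) or isoform 6 (GT/M6) of Mef2c, or with isoform 2 joined to MyoD's transactivation domain (GT/M2TAD). The MEF array came from fibroblasts labelled as not treated, and no array of cells given virus without these factors was analysed here. Of the last pair of arrays, siEp300 was given a small interfering RNA (siRNA) that targets Ep300, which encodes the acetyltransferase p300, and siCtrl a control siRNA. Their titles give GT/M2 and their other labels GT/M2TAD, so the Mef2c form they carried is not settled. Medium was changed 24 h after infection and transduced cells were collected after 1 week. The labels gave no collection time for the MEF array, and no mouse strain, age or number of cultures for any array. Each group had 1 array, so the values have no replicate error, no test was possible, and every difference below is one between single arrays.

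Type I interferons bind a receptor of paired chains on the cell surface. The receptor activates the kinases Jak1 and Tyk2, which activate Stat2. With Irf9, Stat2 enters a complex that binds the interferon-stimulated response element in the promoters of the induced genes. Many of the induced proteins detect foreign RNA, block its translation or degrade it, and others present peptides at the cell surface or restrain the signal. Fibroblasts both make and respond to type I interferon.

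Signal strength limited what could be read for many members. The negative-control probes of each array, taken by their identifiers, gave a limit for that array at their 95th percentile, between 8.43 and 9.33. It is called the control limit here. Whether these probes match any transcript was not checked, so a signal under the limit need not mean that a transcript is absent. Of all named genes, 23.7% to 29.6% lay above the control limit. Among the 40 members, 1 lay above it on all arrays, 7 on some arrays and 32 on none. Medians over all named genes lay between 5.38 and 5.71, and 15 members were below that median on every array. Signals this low can understate a difference in transcript, or show one by noise alone. A member was counted as 2-fold apart when its difference was at least 1 and its larger signal reached that array's median over all named genes. By the same count, 4.23% to 15.9% of the negative-control probes were higher in the comparisons made below.

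The untreated fibroblasts had the lowest signal for many members, and the GT/M6 and siEp300 arrays the highest. MEF was the lowest of the 7 arrays for 20 of 40 members, against 28.0% of all named genes. It was the highest array for 0 members, against 21.2% of all genes. GT/M6 was highest for 14 members and siEp300 for another 14, against 9.21% and 18.8% of all genes. The median signal over the members was 4.51 on MEF, 5.74, 5.01 and 6.77 with isoforms 1, 2 and 6, 5.34 with M2TAD, 5.31 with siCtrl and 6.74 with siEp300.

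**Figure D1:**
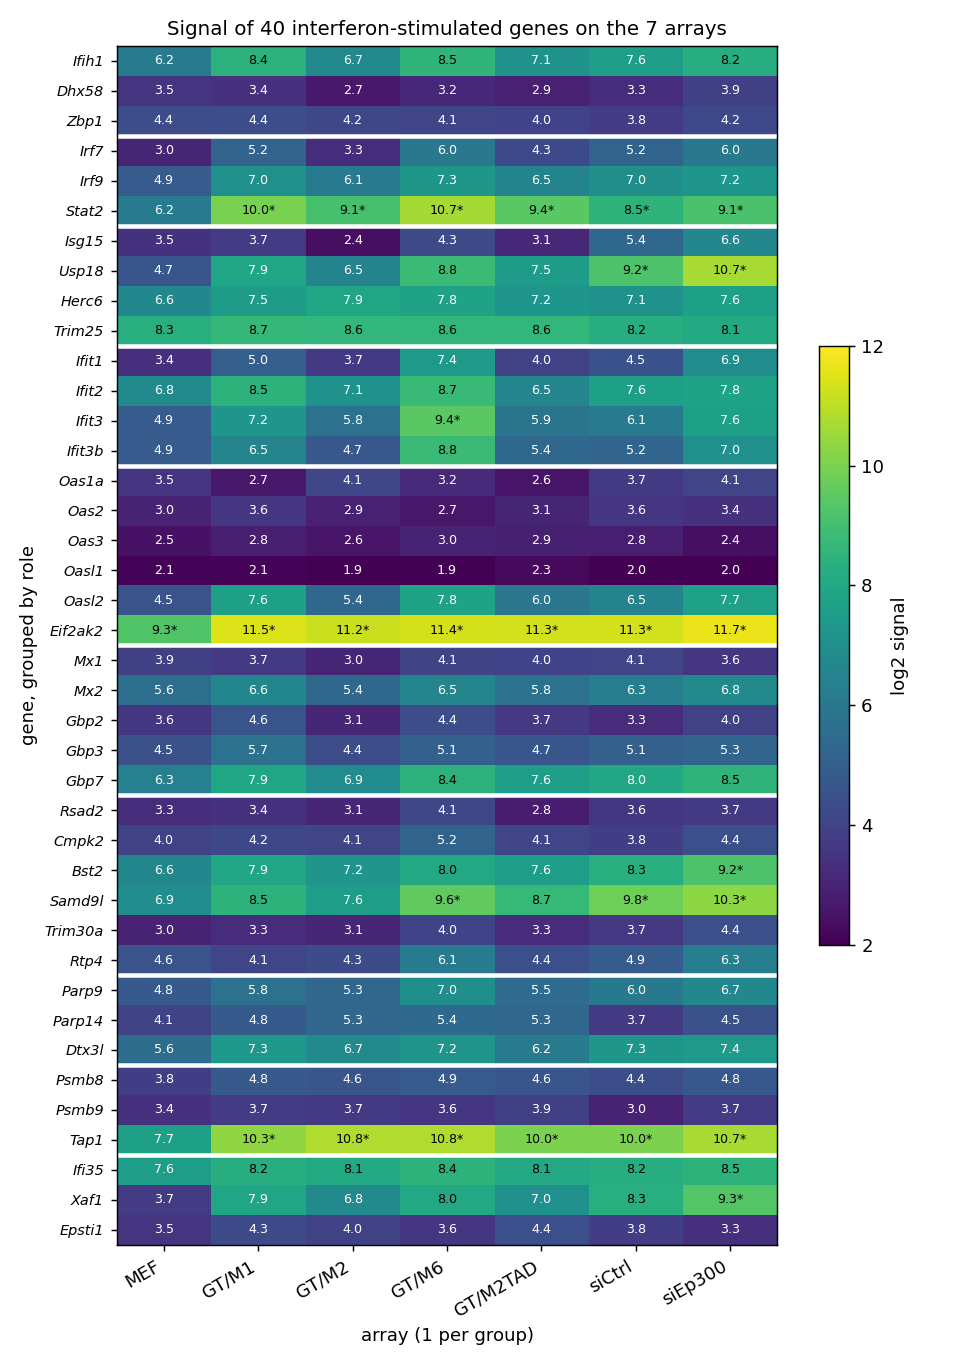
Log2 signal of the 40 members (rows, grouped by role) on the 7 arrays (columns, 1 array per group), with an asterisk where the signal reaches the control limit of its array. Eif2ak2 is marked on all 7 arrays and Stat2 and Tap1 on the 6 transduced arrays, while most rows carry no mark.

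Among the signalling members, Stat2, which carries the signal from the receptor to the nucleus, had a signal of 6.17 on MEF, 9.97, 9.10 and 10.66 with isoforms 1, 2 and 6, 9.44 with M2TAD, 8.48 with siCtrl and 9.12 with siEp300. The MEF value lay below all 6 others and under the control limit, and the transduced values lay above it. Irf9, the partner that gives the complex its DNA contact, had a signal of 4.86 on MEF, 7.02, 6.12 and 7.28 with isoforms 1, 2 and 6, 6.52 with M2TAD, 6.96 with siCtrl and 7.24 with siEp300. Again the MEF value was the lowest, with every array under the control limit. Irf7, a transcription factor that amplifies interferon production, had a signal of 3.04 on MEF, 5.20, 3.30 and 6.01 with isoforms 1, 2 and 6, 4.25 with M2TAD, 5.21 with siCtrl and 6.04 with siEp300. GT/M6 and siEp300 were the high arrays for Irf7, and MEF and GT/M2 the low ones.

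Of the sensors, Ifih1, which encodes the double-stranded RNA sensor MDA5, had a signal of 6.15 on MEF, 8.42, 6.73 and 8.53 with isoforms 1, 2 and 6, 7.10 with M2TAD, 7.61 with siCtrl and 8.25 with siEp300. GT/M1, GT/M6 and siEp300 formed the upper end, and MEF and GT/M2 the lower end. Zbp1, a sensor of Z-form nucleic acid, had a signal of 4.35 on MEF, 4.38, 4.18 and 4.10 with isoforms 1, 2 and 6, 4.01 with M2TAD, 3.78 with siCtrl and 4.21 with siEp300. Dhx58, the gene of the RNA helicase LGP2, lay between 2.68 and 3.91. Zbp1 and Dhx58 stayed below the median of all genes on every array, so no order of arrays is read from them.

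The ISG15 system attaches the ubiquitin-like protein Isg15 to other proteins. Usp18, which removes Isg15 and also blocks the receptor, had a signal of 4.68 on MEF, 7.93, 6.48 and 8.80 with isoforms 1, 2 and 6, 7.50 with M2TAD, 9.20 with siCtrl and 10.68 with siEp300. Its range of 6.00 was the widest of the 40 members, with the 2 siRNA arrays above the control limit and the others below it. Isg15 itself had a signal of 3.47 on MEF, 3.74, 2.39 and 4.33 with isoforms 1, 2 and 6, 3.14 with M2TAD, 5.38 with siCtrl and 6.65 with siEp300. Isg15 was likewise highest on the siRNA arrays, but it reached the median of all genes on siEp300 alone. Trim25, a ubiquitin ligase that activates RNA sensing, had a signal of 8.32 on MEF, 8.67, 8.63 and 8.63 with isoforms 1, 2 and 6, 8.63 with M2TAD, 8.25 with siCtrl and 8.09 with siEp300. Herc6, a ligase for Isg15 in mice, lay between 6.65 and 7.91. Trim25 and Herc6 varied least in this class, and the siRNA arrays were not the high ones.

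The IFIT proteins bind viral RNA ends and block their translation. Ifit1 had a signal of 3.39 on MEF, 5.03, 3.68 and 7.38 with isoforms 1, 2 and 6, 3.98 with M2TAD, 4.54 with siCtrl and 6.85 with siEp300. Ifit3 had a signal of 4.85 on MEF, 7.25, 5.78 and 9.44 with isoforms 1, 2 and 6, 5.86 with M2TAD, 6.07 with siCtrl and 7.65 with siEp300. Ifit3b had a signal of 4.86 on MEF, 6.54, 4.73 and 8.82 with isoforms 1, 2 and 6, 5.38 with M2TAD, 5.25 with siCtrl and 7.01 with siEp300. In all 3 genes GT/M6 was the highest array, followed by siEp300 and then GT/M1. The other 4 arrays were lower. Ifit2 had a signal of 6.78 on MEF, 8.48, 7.12 and 8.75 with isoforms 1, 2 and 6, 6.54 with M2TAD, 7.63 with siCtrl and 7.79 with siEp300, with GT/M6 and GT/M1 highest and GT/M2TAD lowest. Ifit3 and Ifit3b are close copies, and whether their probes tell the transcripts apart is not known here, so they may not be separate measurements. These genes also lie near each other on chromosome 19, with 0 or 1 protein-coding genes between neighbours.

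The OAS proteins make the messenger that activates RNase L, and PKR, the product of Eif2ak2, shuts down translation on double-stranded RNA. Eif2ak2 had a signal of 9.30 on MEF, 11.47, 11.20 and 11.36 with isoforms 1, 2 and 6, 11.33 with M2TAD, 11.31 with siCtrl and 11.71 with siEp300. The 6 transduced arrays lay within 0.51 of each other, and all were above MEF. Oasl2, an OAS-like protein, had a signal of 4.54 on MEF, 7.65, 5.39 and 7.77 with isoforms 1, 2 and 6, 5.98 with M2TAD, 6.48 with siCtrl and 7.72 with siEp300. GT/M6, siEp300 and GT/M1 were the high arrays and MEF the lowest. Oas1a lay between 2.57 and 4.12, Oas2 between 2.65 and 3.60, Oas3 between 2.40 and 2.97 and Oasl1 between 1.86 and 2.27. These 4 genes did not reach the median of all genes on any array.

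Members of the dynamin-like GTPases coat viral particles or pathogen-containing vacuoles. Gbp7 had a signal of 6.34 on MEF, 7.89, 6.87 and 8.45 with isoforms 1, 2 and 6, 7.61 with M2TAD, 7.96 with siCtrl and 8.51 with siEp300. Mx2 had a signal of 5.62 on MEF, 6.60, 5.36 and 6.55 with isoforms 1, 2 and 6, 5.75 with M2TAD, 6.28 with siCtrl and 6.80 with siEp300. For both genes GT/M2 was lower than GT/M1, GT/M6 and the siRNA arrays, and for Gbp7 MEF was the lowest. Mx1 lay between 3.02 and 4.10, Gbp2 between 3.08 and 4.59 and Gbp3 between 4.35 and 5.72. Of these 3, only Gbp3 reached the median of all genes, on GT/M1.

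Other antiviral effectors included Samd9l, an inhibitor of translation, with a signal of 6.90 on MEF, 8.48, 7.59 and 9.57 with isoforms 1, 2 and 6, 8.70 with M2TAD, 9.78 with siCtrl and 10.29 with siEp300. The siRNA arrays and GT/M6 were above the control limit and MEF was lowest. Bst2, which encodes tetherin, the protein that holds budding virus at the cell surface, had a signal of 6.60 on MEF, 7.87, 7.23 and 8.05 with isoforms 1, 2 and 6, 7.61 with M2TAD, 8.32 with siCtrl and 9.21 with siEp300. It had the same high and low ends, siEp300 and MEF. Rtp4, a transmembrane protein, lay between 4.08 and 6.26, with siEp300 and GT/M6 the only arrays above the median of all genes. Rsad2, the gene of viperin, lay between 2.79 and 4.15, and its chromosomal neighbour Cmpk2, a nucleotide kinase, between 3.84 and 5.22. Trim30a lay between 3.0 and 4.44. Those 3 stayed below the median of all genes.

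Parp9 and Dtx3l encode partners in ADP-ribosylation and ubiquitination and are neighbours on chromosome 16. Parp9 had a signal of 4.83 on MEF, 5.76, 5.31 and 6.99 with isoforms 1, 2 and 6, 5.48 with M2TAD, 6.04 with siCtrl and 6.67 with siEp300. Dtx3l had a signal of 5.55 on MEF, 7.32, 6.75 and 7.16 with isoforms 1, 2 and 6, 6.17 with M2TAD, 7.28 with siCtrl and 7.37 with siEp300. MEF was lowest for both, but their high arrays differed, GT/M6 for Parp9 and siEp300 for Dtx3l. Parp14, the next gene on the chromosome, lay between 3.69 and 5.42 and below the median of all genes throughout.

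Tap1, which carries peptides into the endoplasmic reticulum for antigen presentation, had a signal of 7.69 on MEF, 10.34, 10.80 and 10.79 with isoforms 1, 2 and 6, 10.04 with M2TAD, 10.03 with siCtrl and 10.68 with siEp300. The 6 transduced arrays stood above the control limit and MEF below it. Psmb8, a subunit of the immunoproteasome, had a signal of 3.84 on MEF, 4.80, 4.63 and 4.86 with isoforms 1, 2 and 6, 4.62 with M2TAD, 4.40 with siCtrl and 4.77 with siEp300. Psmb9, a second such subunit, lay between 2.99 and 3.89. Both stayed below the median of all genes, although they flank Tap1 on chromosome 17.

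Xaf1, a pro-apoptotic factor, had a signal of 3.74 on MEF, 7.90, 6.76 and 8.03 with isoforms 1, 2 and 6, 7.03 with M2TAD, 8.30 with siCtrl and 9.31 with siEp300. MEF was the lowest array by 3.03, and siEp300 alone passed the control limit. Ifi35 had a signal of 7.56 on MEF, 8.22, 8.07 and 8.45 with isoforms 1, 2 and 6, 8.05 with M2TAD, 8.23 with siCtrl and 8.45 with siEp300, a narrow range with MEF at its lower end. Epsti1 lay between 3.34 and 4.44 and did not reach the median of all genes.

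**Figure D2:**
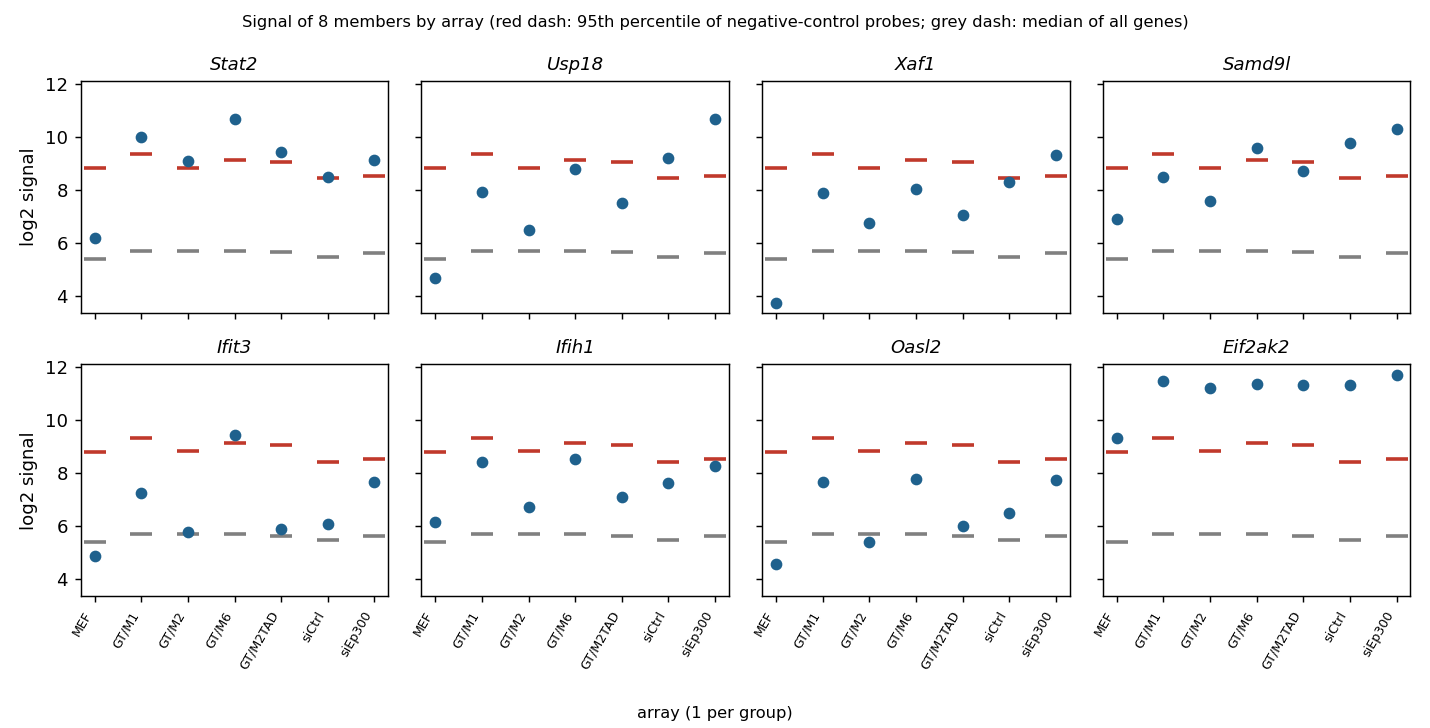
Log2 signal of 8 members (points) on the 7 arrays, 1 array per group, with the control limit (red dashes) and the median of all named genes (grey dashes) of each array. Eif2ak2 stands at 9.30 on MEF and from 11.20 to 11.71 on the other arrays, while Ifit3 passes the control limit on GT/M6 alone.

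Promoters of the members were read for motifs of the interferon pathway, since the members were listed by symbol and not by sequence. RefSeq promoter windows of the GRCm38.p6 build, 250 bases before to 50 bases after each start, were found for 32 of the 41 listed genes. Ifi44 was among them, and Usp18, Mx1, Mx2, Oas2, Dhx58, Zbp1, Rtp4, Parp9 and Parp14 had none. The core of the interferon-stimulated response element was searched as GAAANNGAA on both strands, whose reverse complement is TTCNNTTTC. It matched in 18 of the 32 genes (56.2%), against 9.76% of 27025 genes in the table, where a gene counts if any of its windows matches. Counted by windows of equal length, it matched in 19 of 36 (52.8%) against 8.56% of 32851. Matches at 2 or more places in a window were found for 10 of the 32 genes, against 0.736% of all genes. The gamma-activated site, searched as TTCNNNGAA, which reads the same on both strands, matched in 7 of the 32 (21.9%) against 9.55% of all genes. In Bst2 a match of one motif overlapped one of the other. A match describes letters in the window and does not show binding.

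The stretches below show how the matches are laid out upstream of the start, 5′ to 3′ on the strand of the gene, with the matched letters in capitals. Xaf1 and Ifit3 are shown as the members of widest range with a window, Isg15 and Psmb8 by name, and Ifit1 and Ifit3b beside Ifit3 because these 3 differed most between the GT/M6 and GT/M2 arrays. The Psmb8 match is to the gamma-activated site, the others are to the response element, and Xaf1 has no match to either. They lie at chr19:34640768-34640825, chr19:34583362-34583447 and chr19:34607758-34607843 on the plus strand, chr4:156200864-156200908 on the minus strand, and chr17:34198086-34198118 and chr11:72301549-72301628 on the plus strand.
Ifit1: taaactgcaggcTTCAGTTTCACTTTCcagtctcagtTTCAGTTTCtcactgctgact
Ifit3: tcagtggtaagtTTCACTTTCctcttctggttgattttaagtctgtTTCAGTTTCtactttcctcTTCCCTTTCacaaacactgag
Ifit3b: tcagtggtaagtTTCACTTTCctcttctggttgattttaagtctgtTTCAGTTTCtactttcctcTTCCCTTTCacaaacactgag
Isg15: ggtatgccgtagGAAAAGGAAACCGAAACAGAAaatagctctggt
Psmb8: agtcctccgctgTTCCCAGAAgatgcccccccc
Xaf1: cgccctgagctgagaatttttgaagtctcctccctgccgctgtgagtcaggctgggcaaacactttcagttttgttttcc
The Ifit3 and Ifit3b stretches are identical over their 86 bases. Each of the 3 IFIT stretches and the Isg15 stretch has 3 matches, which overlap one another in Isg15 and in part in Ifit1.

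The Mef2c forms were first set against untreated fibroblasts, to ask how the members stood in reprogrammed cells. Members at least 2-fold higher than on MEF numbered 16 of 40 with isoform 1, 8 with isoform 2, 20 with isoform 6, 11 with M2TAD and 14 with siCtrl. Over all named genes the shares were 12.5%, 13.6%, 13.0%, 14.0% and 10.9% in the same order. No member, 0 of 40, was lower by as much on any of these arrays, against 9.52%, 8.34%, 8.79%, 9.50% and 10.9% of all genes. The median difference over the members was 0.96, 0.41, 1.30, 0.55 and 0.66, beside 0.09, 0.07, 0.08, 0.09 and 0.01 over all genes. All these comparisons share the MEF array. Of the negative-control probes 15.9%, 9.69%, 12.3%, 13.5% and 6.65% met the same count for higher, and their part in the members' counts was not tested. In them the delivered factors, the viral infection and the week of culture cannot be told apart, nor can more transcript per cell from more cells that make it.

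Members 2-fold higher than MEF on all 6 transduced arrays, siEp300 included, were Irf9, Stat2, Usp18, Eif2ak2, Tap1 and Xaf1. Of all named genes 6.28% met the same count. Counted at any size, 20 members were higher on all 6 arrays than on MEF, against 28.0% of all genes, and 0 were lower on all 6. Stat2 was 3.80, 2.93 and 4.49 higher with isoforms 1, 2 and 6, 3.27 with M2TAD and 2.31 with siCtrl. Usp18 was 3.25, 1.80, 4.12, 2.82 and 4.52 higher in that order. For Irf9, Usp18 and Xaf1 the MEF signals were below the median of all genes, so the sizes of these differences are uncertain.

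Classes were also counted, each of only 3 to 6 members, beside 12.5%, 13.6%, 13.0%, 14.0% and 10.9% of all genes in the 5 comparisons. The IFIT family had 3 of 4 members 2-fold higher with isoform 1, 0 with isoform 2, 4 with isoform 6, 1 with M2TAD and 1 with siCtrl. The signalling class had 2, 2, 3, 2 and 2 of 3 members in the same order. In the OAS and PKR class 2, 1, 2, 2 and 2 of 6 members were counted, Eif2ak2 each time and Oasl2 on every array but GT/M2. The antigen presentation class had 1 of 3 on each array, always Tap1. Sensors had 1, 0, 1, 0 and 1 of 3, the ISG15 system 1, 2, 2, 1 and 1 of 4, and the dynamin-like GTPases 2, 0, 1, 1 and 1 of 5. Other antiviral effectors had 2, 0, 3, 2 and 2 of 6, the Parp9 class 1, 1, 2, 0 and 2 of 3, and the Xaf1 class 1 of 3 each time. In classes this small a count of 1 cannot be told from the share of all genes.

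Scaling moved these comparisons. Centring each array on its median over named genes changed the median of all genes from between 0.07 and 0.09 to between -0.25 and -0.17 for the 4 arrays without siRNA. The split of all genes turned with it, on GT/M1 from 2437 higher and 1856 lower to 1815 and 2513, and on GT/M6 from 2545 and 1715 to 1852 and 2444. On GT/M2 the split went from 2643 and 1626 to 1955 and 2222, and on GT/M2TAD from 2729 and 1853 to 2158 and 2387. After centring, 14, 5, 19, 9 and 14 members were 2-fold higher in the same order, and 0 were lower. Quantile normalization gave 16, 5, 19, 8 and 14, and 0 lower. For GT/M2 it counted 2048 of 19505 genes higher, so the 5 members there are near the share of all genes and no result about the members. The median difference over the members stayed above 0 after centring, at 0.66, 0.09, 0.97, 0.29 and 0.59.

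**Figure D3:**
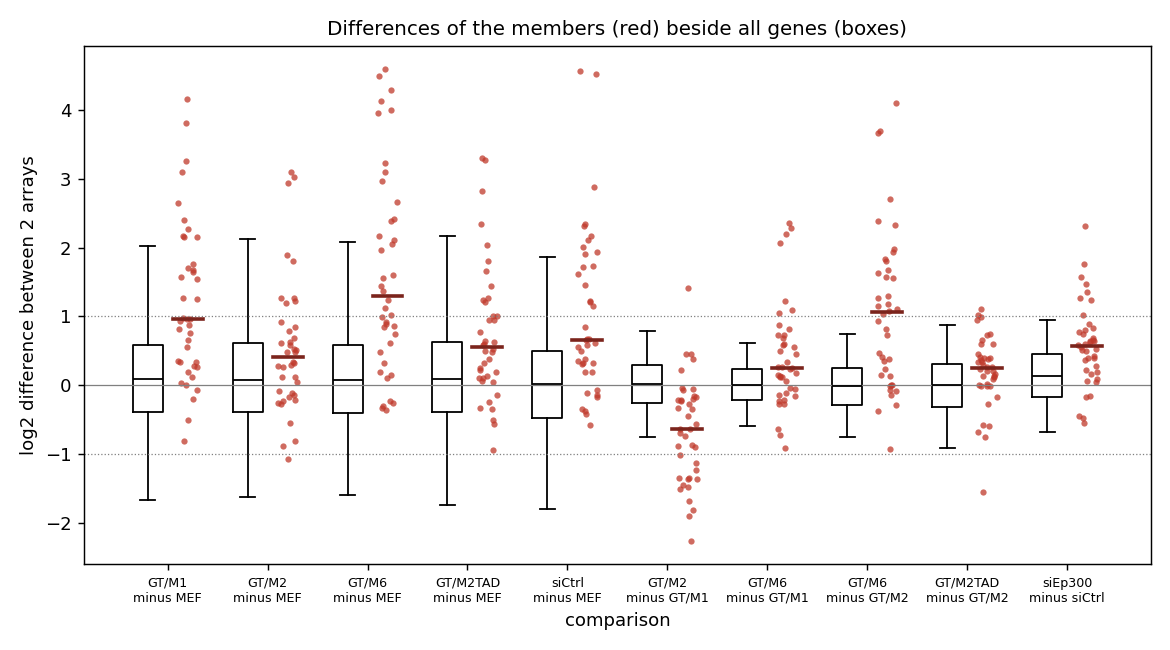
Log2 differences in the 10 comparisons, for all 19505 named genes (box from the lower to the upper quartile, whiskers to the 5th and 95th percentiles) and for the 40 members (points, with a bar at their median). The member median lies at 1.30 for GT/M6 minus MEF, at -0.63 for GT/M2 minus GT/M1 and at 1.06 for GT/M6 minus GT/M2.

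The 3 native isoforms were then compared with each other. The same GT/M2 array enters the comparison with GT/M1 and that with GT/M6, so these are not separate results. Most members were lower with isoform 2 than with isoforms 1 and 6: among these 3 arrays GT/M2 was the lowest for 29 of 40 members, against 34.8% of all genes, and GT/M6 the highest for 25, against 30.8%. Between GT/M2 and GT/M1, 10 members were lower on GT/M2 by the 2-fold count and 0 higher, beside 1.39% and 1.90% of all genes. Their median difference was -0.63, with 35 of 40 members below 0, beside 0.02 over all genes. The lowest was Oasl2 at -2.26, then Ifit3b at -1.81 and Ifih1 at -1.69. Ifit3, Usp18, Gbp3, Ifit2, Mx2, Xaf1 and Gbp7 lay between -1.47 and -1.01. All 10 had both signals under the control limit. The negative-control probes shifted the same way, by a median of -0.30, and 12.3% of them met the count for lower. Their part in the result was not tested. Quantile normalization turned the split of all genes from 370 higher and 271 lower to 299 and 344, and 12 members were then lower, with Stat2 and Samd9l added.

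Between GT/M6 and GT/M1 the members were closer. Those 2-fold higher on GT/M6 numbered 6, beside 0.646% of all genes, and 0 were lower, beside 0.292%. Ifit1 was 2.35 higher, Ifit3b 2.29, Ifit3 2.19, Rtp4 2.06, Parp9 1.23 and Samd9l 1.09. The median over members was 0.25, beside 0.01 over all genes, and the negative-control probes had a median difference of -0.13, in the other direction. Of these probes 5.17% still met the count for higher, and their part in the result was not tested. With the count limited to signals above the control limit, 2 members remained, Ifit3 and Samd9l.

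The widest gap lay between GT/M6 and GT/M2. Here 16 members met the 2-fold count with GT/M6 higher, beside 1.85% of all genes, and 0 were lower, beside 1.71%. Ifit3b was 4.10 higher, Ifit1 3.70, Ifit3 3.66, Irf7 2.71, Oasl2 2.38 and Usp18 2.32. Samd9l, Rtp4, Ifih1, Parp9, Ifit2, Gbp7, Stat2, Xaf1, Mx2 and Irf9 were between 1.15 and 1.98 higher. All 4 IFIT genes and all 3 signalling genes were counted, but 0 of 3 in the antigen presentation class, where Tap1 differed by -0.0035. Eif2ak2 differed by 0.16 and Trim25 by -0.0008. The members' median was 1.06, beside -0.02 over all genes and 0.16 over the negative-control probes, of which 9.02% met the count for higher. With the count limited to signals above the control limit, 3 members remained, Ifit3, Samd9l and Stat2.

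The fused form of isoform 2 was set against native isoform 2, to ask what differed with the MyoD domain. Only Samd9l at 1.11 and Usp18 at 1.02 were 2-fold higher, 2 of 40 members beside 2.96% of all genes. The count for lower was 0, beside 3.33%. The median over members was 0.25, beside 0.002 over all genes and 0.15 over the negative-control probes. A count of 2 is near the share of all genes, so it is no result about the members. The 4 IFIT genes lay between -0.59 and 0.66.

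siEp300 was compared with siCtrl to ask how the members differed with siRNA against Ep300. Members 2-fold higher on siEp300 numbered 8, beside 1.93% of all genes, and 0 were lower, beside 0.390%. They were Ifit1 at 2.31, Ifit3b at 1.77, Ifit3 at 1.58, Usp18 at 1.48, Rtp4 at 1.36, Isg15 at 1.27, Oasl2 at 1.24 and Xaf1 at 1.01. Of 40 members 35 were above 0, against 62.4% of all genes. The median over members was 0.57, beside 0.14 over all genes and 0.09 over the negative-control probes, of which 10.7% met the count for higher. Only Usp18 and Xaf1 of the 8 reached the control limit. Scaling turned the split of all genes, from 377 higher and 76 lower to 195 and 141 after median centring and 161 and 168 after quantile normalization. The members counted were then 7, without Xaf1, and 6, without Xaf1 and Oasl2, with 0 lower in both, and their median was 0.41 and 0.38.

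Usp18, Isg15, Bst2, Samd9l and Xaf1 had their highest signals on the siEp300 array, and their second highest on siCtrl. Both siRNA arrays therefore lay above the 4 transduced arrays without siRNA for these 5 genes, whatever form of Mef2c they carried. These 5 of the 40 members were picked for having this order. The share of all genes with the same order was not computed, so the order is no result about the members. Over the members, siCtrl was the highest array for 2 and the lowest for 4. Isg15 on siCtrl, at 5.38, was also below the median of all genes there, 5.45. For Ifit1, Ifit3 and Ifit3b siCtrl lay instead below GT/M1 and GT/M6. No array without siRNA was labelled as handled in parallel with this pair, so siRNA delivery and other differences of handling cannot be told apart.

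The comparison of GT/M6 with GT/M2 and that of siEp300 with siCtrl share no array, so their members were set side by side. Members 2-fold higher in both numbered 7: Ifit1, Ifit3, Ifit3b, Usp18, Oasl2, Rtp4 and Xaf1. They were 43.8% of the 16 counted in the first comparison and 87.5% of the 8 in the second. Isg15, the other gene of the second, was 1.94 higher on GT/M6 than on GT/M2, with both signals below the median of all genes. Over all named genes 18 were 2-fold higher in both, or 0.0923%. The other 9 members of the first comparison were not counted in the second. Irf7 was at 2.71 and 0.83, Samd9l at 1.98 and 0.51, Ifih1 at 1.80 and 0.64, Parp9 at 1.68 and 0.63 and Ifit2 at 1.63 and 0.16. Gbp7, Stat2, Mx2 and Irf9 lay between 1.15 and 1.57 in the first and between 0.27 and 0.64 in the second.

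**Figure D4:**
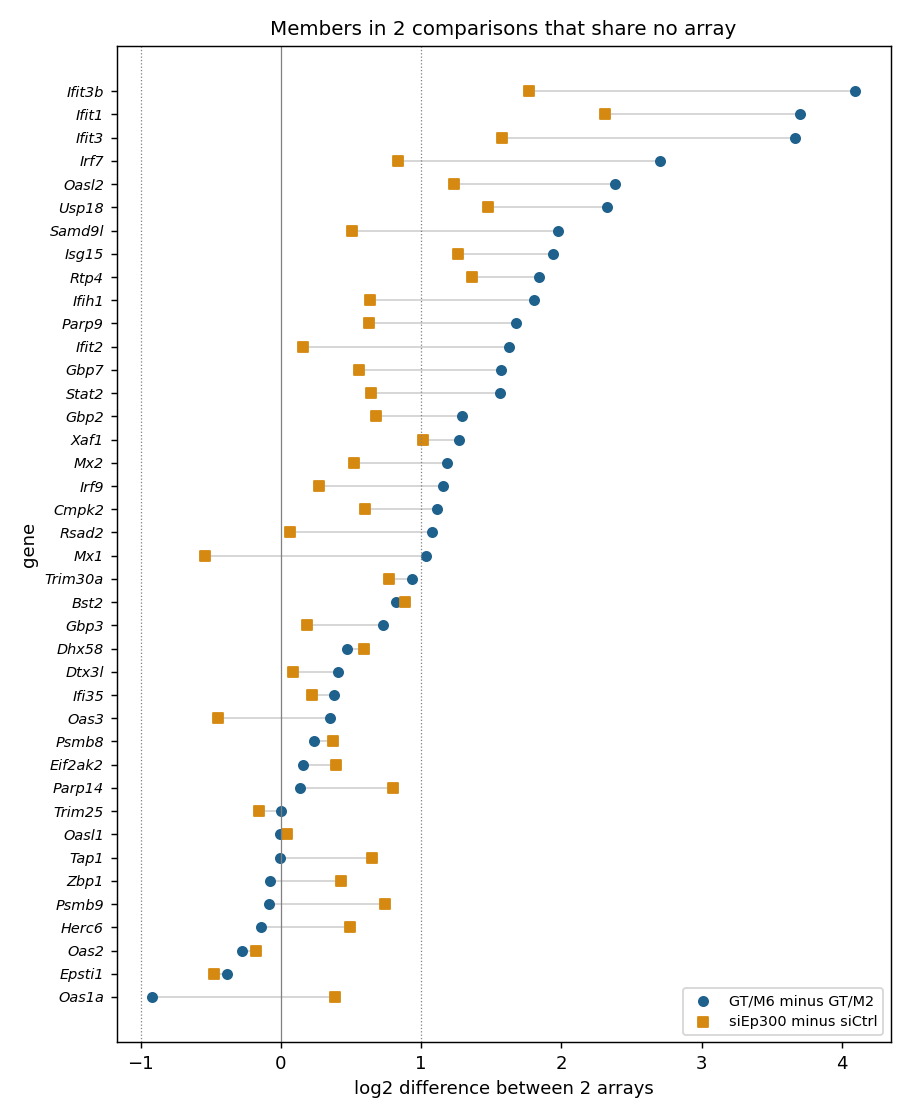
Log2 difference of each of the 40 members for GT/M6 minus GT/M2 (circles) and siEp300 minus siCtrl (squares), ordered by the first. Ifit3b, Ifit1 and Ifit3 are at the top, at 4.10, 3.70 and 3.66 in the first comparison and 1.77, 2.31 and 1.58 in the second.

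Members with and without a match to the response element were compared by counts, leaving out the 9 without a window. For GT/M6 minus GT/M2, 7 of 17 members with a match and 5 of 14 without were 2-fold higher, with medians of 1.29 and 0.39. For siEp300 minus siCtrl the counts were 4 of 17 and 2 of 14, with medians of 0.64 and 0.43. For GT/M6 minus GT/M1 they were 4 of 17 and 0 of 14, with medians of 0.56 and 0.18, and the other 2 members counted there had no window. For GT/M6 minus MEF they were 9 of 17 and 8 of 14, with medians of 1.44 and 1.42, and for GT/M2 minus MEF 2 of 17 and 5 of 14, with medians of 0.32 and 0.65. The direction of the gap between members with and without a match thus varied over the comparisons.

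Other genes of the pathway came from lists of 100 genes, of which 91 were measured. The 10 interferon genes, Ifnb1, Ifna1, Ifna2, Ifna4, Ifna5, Ifnk, Ifne, Ifng, Ifnl2 and Ifnl3, lay under the control limit on every array. Ifnb1, the interferon that fibroblasts make first, had a signal of 4.26 on MEF, 3.94, 3.83 and 4.50 with isoforms 1, 2 and 6, 4.19 with M2TAD, 4.37 with siCtrl and 4.84 with siEp300. Without Ifna5, which lay between 6.38 and 7.04, the highest interferon signal was 5.43. Both chains of the type I receptor were above the control limit throughout. Ifnar1 had a signal of 10.15 on MEF, 11.73, 11.45 and 11.91 with isoforms 1, 2 and 6, 11.33 with M2TAD, 10.55 with siCtrl and 10.75 with siEp300. Ifnar2 had a signal of 11.07 on MEF, 11.91, 11.55 and 12.06 with isoforms 1, 2 and 6, 12.06 with M2TAD, 12.22 with siCtrl and 12.16 with siEp300. MEF was lowest for both chains. Ifnar1 was 2-fold higher than MEF on the 4 arrays without siRNA, and Il10rb, a receptor chain for type III interferon, on those and on siCtrl. Ifnar2 was 1.14 higher than MEF on siCtrl. Ifngr2, a chain of the interferon-gamma receptor, was 1.75 higher on GT/M2TAD and 1.71 higher on siCtrl, and 1.10 higher on GT/M2TAD than on GT/M2.

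Further down the pathway, Tyk2 was 1.66, 1.69, 1.71 and 1.89 higher than MEF with isoforms 1, 2 and 6 and with M2TAD. Stat3, a signal transducer of interleukin-6 type cytokines, was 1.38 to 1.72 higher than MEF in the 5 comparisons. Ptpn11, the phosphatase SHP2, was 1.04 to 1.68 higher in all but that of GT/M2. Jak1 was between 8.81 and 9.74 over the arrays. Irf3, which turns on interferon genes after RNA sensing, had a signal of 6.72 on MEF, 8.37, 8.11 and 8.17 with isoforms 1, 2 and 6, 7.69 with M2TAD, 7.42 with siCtrl and 8.15 with siEp300. Irf1, a factor shared with the response to interferon-gamma, had a signal of 7.64 on MEF, 7.58, 7.72 and 8.02 with isoforms 1, 2 and 6, 6.64 with M2TAD, 6.32 with siCtrl and 6.10 with siEp300, with both siRNA arrays and GT/M2TAD lowest. In this list of 14 measured kinases, STATs and IRFs, 0 were 2-fold apart between GT/M6 and GT/M2 or between siEp300 and siCtrl. Of all genes 1.85% were higher and 1.71% lower in the first comparison, and 1.93% and 0.390% in the second. A count of 0 of 14 is near these shares, so it is no result about the list.

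Among the sensing genes, Ddx58 and Tlr3 were high on GT/M6 and siEp300 and low on GT/M2 and MEF. Ddx58, the gene of the RNA sensor RIG-I, had a signal of 8.53 on MEF, 9.19, 7.88 and 9.55 with isoforms 1, 2 and 6, 8.86 with M2TAD, 9.18 with siCtrl and 9.89 with siEp300. Tlr3, the endosomal receptor for double-stranded RNA, had a signal of 6.18 on MEF, 8.37, 7.38 and 9.02 with isoforms 1, 2 and 6, 8.61 with M2TAD, 8.55 with siCtrl and 9.29 with siEp300. Both were 2-fold higher on GT/M6 than on GT/M2, 2 of 13 measured genes in the list, beside 1.85% of all genes. Between siEp300 and siCtrl 1 gene was counted, beside 1.93% of all genes. It was Ikbke, a kinase of this pathway, at 1.92, with both signals under the control limit. Tlr4 was 2.98 to 3.99 higher than MEF on the arrays without siRNA and on siCtrl, and Mavs, the adaptor of RIG-I and MDA5, 1.29 to 1.63 higher on the arrays without siRNA. Cgas, the sensor of cytosolic DNA, was the 1 gene of the list counted lower than MEF, at -1.17, -1.21, -1.11, -1.18 and -1.75 in the 5 comparisons, with all signals under the control limit. A count of 1 of 13 is near the 8.34% to 10.9% of all genes counted lower than MEF.

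Of 32 further interferon-induced genes, 11, 6 and 11 were 2-fold higher than MEF with isoforms 1, 2 and 6, 10 with M2TAD and 9 with siCtrl, beside 12.5%, 13.6%, 13.0%, 14.0% and 10.9% of all genes. The count with isoform 2 is near that share. The lower ones numbered 1, 2, 1, 0 and 0, beside 9.52%, 8.34%, 8.79%, 9.50% and 10.9% of all genes. Ifi27 had a signal of 6.07 on MEF, 9.59, 8.19 and 9.25 with isoforms 1, 2 and 6, 10.41 with M2TAD, 11.17 with siCtrl and 12.40 with siEp300. As with Usp18, MEF was its lowest array and the siRNA arrays its highest. Lgals3bp, which encodes a secreted glycoprotein, was between 3.01 and 4.64 higher than MEF in the 5 comparisons. Tor3a, which encodes a torsin ATPase, was 2.61 to 3.52 higher. Adar, an RNA-editing enzyme, was 1.26 to 1.45 higher in all but that of GT/M2, and Ifitm2, which blocks viral entry, 1.07 higher on GT/M6. Lgals9 went the other way, at -1.34, -1.92 and -1.01 on the native isoforms. Between GT/M6 and GT/M2, 4 of the 32 were higher and 0 lower, beside 1.85% and 1.71% of all genes. They were Ifi204 at 1.37, Parp12 at 1.27, Helz2 at 1.15 and Ifi27 at 1.07. Between siEp300 and siCtrl 3 were higher and 0 lower, beside 1.93% and 0.390%: Ifi27 at 1.23, Ifitm1 at 1.06 and Parp11 at 1.01. Between GT/M2TAD and GT/M2 3 were higher and 0 lower, beside 2.96% and 3.33%: Ifi27 at 2.23, Lgals3bp at 1.33 and Lgals9 at 1.24. Pml, the nuclear body protein, was 1.72 and 1.78 higher than MEF on GT/M1 and GT/M6.

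Of 16 measured genes best known for the response to interferon-gamma, 5, 6 and 8 were 2-fold higher than MEF with isoforms 1, 2 and 6, 3 with M2TAD and 5 with siCtrl, beside the same shares of all genes, which the count with M2TAD is near. Between GT/M6 and GT/M2 the 3 counted, beside 1.85% of all genes higher, were the GTPases Irgm1, Irgm2 and Iigp1, at 2.13, 2.0 and 1.08. Irgm1, a GTPase of autophagy, had a signal of 9.36 on MEF, 8.19, 7.65 and 9.77 with isoforms 1, 2 and 6, 10.04 with M2TAD, 12.49 with siCtrl and 12.83 with siEp300. It lay far above MEF on the siRNA arrays and below MEF on GT/M1 and GT/M2, where 36 and 28 of the 40 members lay above MEF. H2-K1, a class I histocompatibility gene, was 1.02 higher on siEp300 than on siCtrl. Psme1, a proteasome activator, was 1.22 and 1.18 higher than MEF on GT/M2 and GT/M6. B2m, the light chain of class I molecules, lay between 16.87 and 17.87. Tapbp, a chaperone of peptide loading, was 2.19, 2.08, 2.26, 1.78 and 1.82 higher than MEF in the order of the arrays.

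Markers of other cells were read on the same arrays. Of 17 measured macrophage markers, 0 were above the control limit on any array, and neither were any of 7 lymphocyte and NK cell markers. The summed macrophage signal, on a log2 scale, was 8.97 on MEF, 9.95, 8.61 and 9.36 with isoforms 1, 2 and 6, 8.39 with M2TAD, 9.0 with siCtrl and 8.82 with siEp300. The sum was lower on GT/M2 than on GT/M1 and GT/M6, as most members were. For GT/M6 minus GT/M2, however, only 8 of the 17 markers were above 0, with a median of -0.08, and the 1 counted was Lyz2, a macrophage lysozyme, at 2.08. For GT/M2 minus GT/M1, 5 were counted lower and 0 higher, with a median of -0.51. The part of such cells in the differences between isoforms was not tested. Between siEp300 and siCtrl the macrophage sum lay the other way to the members. Csf1r, Adgre1 and Ptprc, which define macrophages and leukocytes, lay at or below 5.10 on every array. Of 8 endothelial markers, 1 was above the control limit on MEF and 0 on the others. Kdr alone was counted lower than MEF in the 5 comparisons, between -4.82 and -2.01, beside 8.34% to 10.9% of all genes. It alone was counted higher on siEp300 than on siCtrl, at 2.16, beside 1.93% of all genes. In a list this small a count of 1 cannot be told from these shares. Cardiac markers above the control limit numbered 1 of 10 on MEF and 7 or 8 on the other arrays, and 7 or 8 of 9 fibroblast markers were above it on every array. Fibroblast markers differed between isoforms in the same direction as the members: for GT/M6 minus GT/M2 their median was 0.97, with 7 of 9 above 0, 3 counted higher (Col1a2 at 2.51, Lum at 1.42 and Pdgfrb at 1.31) and 0 lower. For GT/M2 minus GT/M1 their median was -0.73, with 3 counted lower and 0 higher, and for siEp300 minus siCtrl 0 were counted in either direction. Their part in the members' differences was not tested. Proliferation markers above the control limit numbered 17 of 17 on MEF and 1 to 8 on the others, so they were lower where the members were higher in the comparisons with MEF. Their part in those differences was not tested. Among the native isoforms the summed proliferation signal was 13.9, 14.4 and 14.0 with isoforms 1, 2 and 6. For GT/M6 minus GT/M2, 0 of the 17 proliferation markers were above 0 and 5 were counted lower, the opposite direction to the members. For siEp300 minus siCtrl 13 of the 17 were above 0, with a median of 0.36, beside 62.4% and 0.14 over all genes. There 3 were counted higher, beside 1.93% of all genes, and 0 lower, the same direction as the members. The part of proliferation in these differences was not tested.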

How the data were processed

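RNA from 7 samples was hybridised to Affymetrix Clariom S mouse arrays. The deposited values are log2 signals, which the authors made with the SST-RMA method, per the series text, in Affymetrix Expression Console 1.4, per the submitters' processing notes. A genome build is not given in the sources used here. Of 28846 probe sets, 19572 had 1 gene symbol in the platform annotation, 0 had several and 9274 had none. A gene with several probe sets (55 genes) was read from the one with the highest mean signal.

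Differences of log2 signals between 2 arrays were computed in Python 3.11.15 with pandas 2.3.3 and numpy 2.4.6 (figures: matplotlib 3.10.9). There were 10 comparisons, each counted over all 19505 named genes by the 2-fold rule. The computation was checked on simulated data, with differences placed only in genes of high signal. The check therefore did not cover the lower signals of most members. With 1 array per group, no model was fitted. No column of values was left unused.

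The members, their role classes and the other gene lists were chosen with earlier results of these data known. Signals on all 7 arrays are given for the 2 members of each role class with the highest mean signal and for Ifit1, Ifit3, Ifit3b, Isg15, Usp18, Irf7, Stat2 and Psmb8, and differences for members 2-fold apart. Of the other lists, Ifnar1, Ifnar2, Ifnb1, Ddx58, Irf3 and Irf1 were always named, with genes 2-fold apart above the control limit; further genes were named after their values were seen. Promoter stretches were set for the 2 members of widest range that have a window, Isg15 and Psmb8, and those of Ifit1 and Ifit3b were added after values were seen. Alternatives were a floor at the control limit, no floor, median centring, quantile normalization and the mean of probe sets.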

Additional observations from a re-analysis of the deposited data

How the results depend on the processing

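No count or median over all 40 members changed direction under the alternatives tried. Median centring turned 9 of the role-class medians in the 10 comparisons and quantile normalization 5, among them the IFIT family for GT/M2 minus MEF, from 0.32 to -0.0021 with centring, and the sensors for GT/M1 minus MEF, from 0.03 to -0.28. With a floor at the control limit in place of the median, members 2-fold higher numbered 3 on GT/M1 against MEF, 3 on GT/M2, 5 on GT/M6, 3 on GT/M2TAD and 5 on siCtrl. They numbered 2 for GT/M6 minus GT/M1, 3 for GT/M6 minus GT/M2, 0 for GT/M2TAD minus GT/M2 and 2 for siEp300 minus siCtrl, and 0 were lower for GT/M2 minus GT/M1. With no floor, 1 member was lower for GT/M2 minus MEF, 1 higher for GT/M2 minus GT/M1 and 1 lower for GT/M2TAD minus GT/M2. Median centring and quantile normalization each left 5 members higher for GT/M2 minus MEF. Of the 20 counts, 10 stayed within 1.5 times with the control-limit floor. Those 10 were all 0 at the start, and a higher floor cannot raise a 0. The 10 counts above 0 all moved. With no floor 17 stayed within 1.5 times, with centring 19 and with quantile normalization 19, counts of 0 included. Averaging probe sets could not move them, since 0 members have several. Signals near the negative-control probes limit most members, and 1 array per group leaves the spread between cultures unknown. No paired analysis was possible because each group had 1 array.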

Other observations

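The MEF and siCtrl arrays had 23 probe sets of identical value, against at most 9 for any other pair of arrays.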
